A study of Mus musculus with 7 samples.

Results

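The interferon response genes described here were a list of 37 genes, and the unit measured was the accessible region near them in mouse liver. Members were the rows of the table of counts that overlapped the body of a listed gene or the 5 kb on either side of it, in GRCm38 and with the gene models of GENCODE M21. The rule used no measured value and found 69 of 55680 regions. Of the 37 genes, 33 had at least 1 region, and none was recorded near Oas1a, Oas2, Oas3 or Ifi44. The assay was ATAC-seq, where a transposase inserts adapters into open chromatin and the tagged fragments are sequenced. All samples were whole liver of C57BL/6N mice, 3 of them from young animals aged 3 months and 4 from aged animals aged 18 months, and the mice were male, with no treatment or genetic change. The paper describes 4 aged biological replicates. By the description of the design, however, these samples came from 3 animals, 1 of which gave a pair of samples from different lobules. The labels do not say which samples these were, so the p-values treat the 4 as separate.

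Interferons are secreted alarm proteins that cells release on sensing a virus, and most cell types, hepatocytes included, respond to them. Type I interferon signals through a complex that contains STAT2 and IRF9 and binds the interferon-stimulated response element (ISRE), while interferon gamma acts mainly through the gamma-activated site (GAS) and through IRF1. The induced genes encode sensors of foreign RNA, enzymes that block viral replication, GTPases that attack the membranes around intracellular microbes, and the brakes that end the response.

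The ISRE is the sequence that these promoters are known for, so the stretches that carry it are shown for the member with a changed promoter, Gbp3, for its neighbour Gbp7, for Ifit1, Ifit3, Bst2 and Igtp, whose promoter regions were measured, and for Isg15 and Oas1a, which had none. The core was taken as GAAANNGAAA on either strand, and each of its matches is in capitals. A match on the other strand reads as TTTCNNTTTC, and neighbouring matches can share 4 letters. The sequences are from RefSeq promoters of GRCm38.p6 and run 5′ to 3′ on the strand of the gene, upstream of its RefSeq start. The stretch of Gbp3 ends a few bases inside the first exon of a GENCODE transcript, and those of the other genes overlap no exon in GENCODE M21.
Gbp3, chr3:142559979-142560034, plus strand: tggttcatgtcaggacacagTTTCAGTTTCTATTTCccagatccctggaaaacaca
Gbp7, chr3:142530263-142530312, plus strand: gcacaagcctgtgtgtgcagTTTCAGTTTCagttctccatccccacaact
Ifit1, chr19:34640765-34640833, plus strand: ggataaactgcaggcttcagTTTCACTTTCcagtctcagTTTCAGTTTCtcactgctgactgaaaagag
Ifit3, chr19:34583353-34583436, plus strand: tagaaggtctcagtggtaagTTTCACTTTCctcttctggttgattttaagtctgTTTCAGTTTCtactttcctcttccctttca
Bst2, chr8:71537567-71537622, minus strand: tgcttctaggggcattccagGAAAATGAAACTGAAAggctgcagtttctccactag
Igtp, chr11:58199502-58199551, plus strand: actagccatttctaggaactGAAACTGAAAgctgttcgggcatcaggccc
Isg15, chr4:156200855-156200916, minus strand: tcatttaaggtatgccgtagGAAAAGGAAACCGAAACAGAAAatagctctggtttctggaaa
Oas1a, chr5:120907526-120907565, minus strand: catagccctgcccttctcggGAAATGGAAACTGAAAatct
The core nearest the start began 39 bases upstream of it in Gbp3, 53 in Gbp7 and 34 in Igtp. It began 85 bases upstream in Ifit1, 122 in Ifit3, 124 in Bst2, 66 in Isg15 and 14 in Oas1a. RefSeq windows of 300 bases around the start were found for 29 of the 37 genes. The core was in 16 of them (55.2%), against 3.44% of all 32851 windows. The longer form GAAANNGAAACT, which contains the core, was in 9 (31.0%) against 0.271%. The GAS, taken as TTCNNNGAA, was in 9 (31.0%) against 8.30%, and its matches may share letters with those of the ISRE. These are matches of letters and not measured binding.

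The counts in all regions summed to between 4474652 and 25461110 per library, and a member region held from 8 to 2649 reads in a library. Values per sample are counts scaled to a common library size after TMM normalization (CPM), and the log2 ratios are log2 fold changes of aged over young from edgeR's quasi-likelihood test, with the p adjusted over all 55680 regions. The liver label was checked against markers. All 10 hepatocyte markers had a promoter region, with 762.6 to 859.9 CPM in sum in young and 938.7 to 1083.0 CPM in aged samples. Of 10 Kupffer cell and macrophage markers only Clec4f had one, at 2.22 to 2.65 CPM in young and 0.588 to 2.80 CPM in aged samples, and the other 9 had none. None of the 10 lymphocyte markers had a promoter region, and of 8 dendritic cell markers 3 did, at 70.9 to 84.3 CPM in sum in young and 71.8 to 93.9 CPM in aged samples. Most of that sum was Tcf4 and Zbtb46, while the weak region of Ccr9 had a log2 ratio of -1.20 (adjusted p = 0.061), with every aged sample below every young one. The 6 of 8 sinusoidal endothelial markers with a region summed to 78.6 to 94.6 CPM in young and 65.9 to 105.0 CPM in aged samples, and Stab2 was the largest part of that sum. Of these 6, 5 had log2 ratios below 0, with a median of -0.25, and at Fcgr2b (-0.60, adjusted p = 0.102) every aged sample lay below every young one. The 4 of 8 stellate cell markers with a region summed to 34.8 to 39.7 CPM in young and 21.9 to 27.9 CPM in aged samples. The ages did not overlap in this sum, nor in that of the hepatocyte markers. At an adjusted p under 0.05, 2 of the 10 hepatocyte markers (20%) were higher, against 4.48% of all promoter regions. None of the 4 stellate cell markers was called in either direction.

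The share of regions near interferon response genes that passed the test as less accessible in aged liver was close to that of all regions. With an adjusted p below 0.05, 2 of the 69 regions (2.90%) were less accessible, where 3.3% of all regions were. The 2 regions were the promoter of Gbp3, a guanylate-binding protein, and an internal start of Usp18, the protease that removes ISG15 from proteins and damps interferon signalling. None was called more accessible by edgeR, where 2.44% of all regions were, although DESeq2 and GC offsets each called 1 (1.45%), the region shared by Stat2 and Apof. By those tests 4.96% and 6.4% of all regions were more accessible. The balance over all regions depended on the scaling: higher against lower calls numbered 1360 and 1838 by the main test, 2760 and 1931 with DESeq2, 3564 and 2058 with GC offsets, and 543 and 2931 with total counts. At an unadjusted p under 0.05, 1 region was higher (1.45%, against 11.9% of all regions) and 15 were lower (21.7%, against 12.7%). With GC offsets 4 were higher and 9 lower, with DESeq2 1 and 9, with total counts 1 and 20, and with offsets on mean abundance 0 and 14. The share of all regions at this cut was not computed under these alternatives, so these counts cannot be set against a background. When single samples were left out, the number higher was 1 or 2, being 2 for aged replicate 2 and for young replicate 3. The number lower ran from 6 to 15. It was 6 without young replicate 1, 9 without young replicate 3, and 7 and 10 without aged replicates 1 and 2. No share of all regions was computed at this cut here either. Adjusted lower calls over all regions also fell without young replicate 1, from 1838 to 133. Every aged sample lay above every young one in 2 regions (2.90%, against 10.2% of all regions) and below every young one in 9 (13.0%, against 11.6%). Whole liver holds several cell types, so a lower count can come from fewer cells of a type or from less open chromatin in each, and the data cannot tell these apart. The levels of the cell type markers given above moved with age as stated, and their part in the results at member regions was not tested.

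Of the 37 genes, 32 had a region within 200 bp of an annotated start, and where a gene had several, the strongest was used. Parp9 and Dtx3l share 1 such region, which left 31 promoter regions. Of these 31, 1 (3.23%) was called less accessible, against 2.06% of all promoter regions, and none more accessible by edgeR, against 4.48%. In 1 (3.23%) every aged sample lay above every young one, where this held for 20.4% of all promoter regions, and in 3 (9.68%) every aged sample lay below, against 8.88%. Per kb of region, the mean young level ran from 5.94 CPM at Gbp2 to 36.2 CPM at Irf1. Gbp2, Oasl2 and Ifit3 had the lowest levels per kb, at 5.94, 6.62 and 6.88 CPM, and Mx2, Irf8 and Irf1 the highest, at 33.4, 34.6 and 36.2 CPM.

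**Figure D1:**
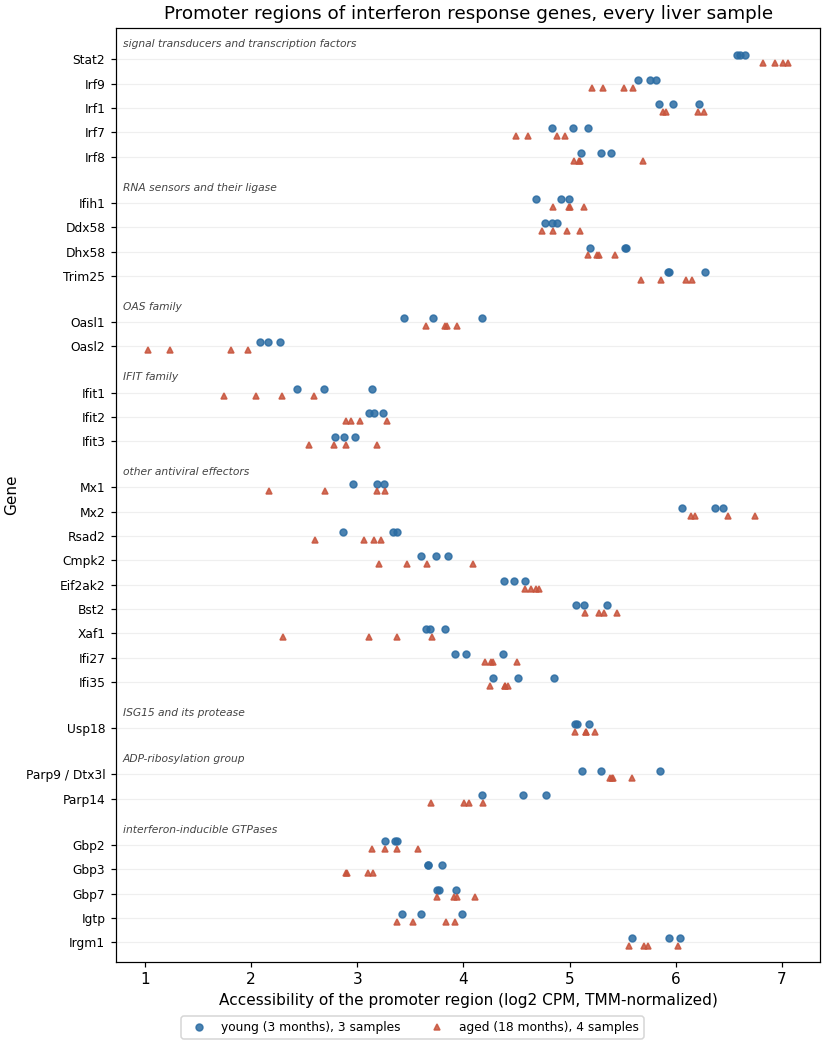
Accessibility in log2 CPM (horizontal axis) of the 31 promoter regions of interferon response genes, 1 row per gene by role, with young samples as circles and aged samples as triangles. In most rows the ages overlap, while at Gbp3, Oasl2 and Irf9 every aged sample lies left of every young one and at Stat2 every aged sample lies right.

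Of the 5 genes for transcription factors, Stat2, Irf1, Irf8 and Irf9 had some of the most open promoters per kb in the list, and none of the 5 passed the test. The region at the start of Stat2, the signal transducer of type I interferon, lies on chromosome 10 from 128268108 to 128271051 and also covers the start of Apof, an apolipoprotein gene of hepatocytes. It held 97.2, 100.1 and 95.2 CPM in young and 122, 113, 133 and 129 CPM in aged liver. Every aged sample was above every young one, with a log2 ratio of 0.35 (standard error 0.11, adjusted p = 0.064). The counts cannot be split between Stat2 and Apof. With offsets fitted on mean abundance, which remove the trend of fold change with strength, the log2 ratio was 0.01. With total counts it was 0.23 (adjusted p = 0.145). The region passed under 4 of the 19 alternatives run. These were DESeq2 (0.38, adjusted p = 0.017), GC offsets (0.46, adjusted p = 0.011), the fit without aged replicate 2 (0.39, adjusted p = 0.049) and aged replicates 2 and 4 summed (0.36, adjusted p = 0.042).

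At the promoter of Irf9, which encodes the DNA-binding partner of STAT2, on chromosome 14 from 55603260 to 55605028, the young samples held 55.9, 49.7 and 53.8 CPM and the aged ones 39.5, 36.9, 48.1 and 45.3 CPM. Every aged sample was below every young one, and the log2 ratio was -0.32 (standard error 0.12, adjusted p = 0.115). It passed with total counts (-0.45, adjusted p = 0.034) and with offsets on mean abundance (-0.54, adjusted p = 0.031), and under none of the other 17 alternatives run. Among these it was -0.22 (adjusted p = 0.242) with GC offsets, -0.29 (adjusted p = 0.194) with DESeq2 and -0.28 (adjusted p = 0.318) without young replicate 1. The median region of the same strength decile had a log2 ratio of 0.28. Each decile holds 5568 regions, ranked by mean log2 CPM.

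Irf7, the factor that amplifies type I interferon production, held 35.8, 28.4 and 32.6 CPM in young and 22.3, 24.1, 30.8 and 29.3 CPM in aged liver. The ages overlapped, with a log2 ratio of -0.28 (adjusted p = 0.26). The promoters of Irf1, an early responder to interferon gamma, and of Irf8, a factor of myeloid cells, had log2 ratios of 0.06 and 0.00 (adjusted p = 0.83 and 0.996). Downstream of Irf1, on chromosome 11 from 53779947 to 53780497, the young samples held 8.52, 6.73 and 10.7 CPM and the aged ones 4.04, 5.49, 5.37 and 4.96 CPM. The ages did not overlap there, and the log2 ratio was -0.79 (standard error 0.24, adjusted p = 0.065). A region downstream of Stat2 at 128295063 held 5.46, 4.04 and 9.70 CPM in young and 3.51, 3.14, 2.33 and 3.31 CPM in aged liver, also without overlap. Young replicate 3 was far above the other samples, and the log2 ratio of -0.96 (adjusted p = 0.086) was -0.57 without it. At an internal start of Stat2, at 128282667, it was -0.64 (adjusted p = 0.105), with 3 of the 4 aged samples below every young one. These regions of Irf1 and Stat2 were singled out after their values were seen.

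The RNA sensors showed little difference at their promoters. Ifih1 and Ddx58 encode MDA5 and RIG-I, helicases that detect viral RNA, Dhx58 encodes their relative LGP2, and Trim25 a ubiquitin ligase of the RIG-I pathway. Their 4 log2 ratios were 0.13, 0.09, -0.12 and -0.10, with adjusted p from 0.57 to 0.72. The Ddx58 value is that of an internal start, the stronger of its promoter regions. At its first exon, on chromosome 4 from 40238754 to 40240708, young samples held 19.99, 15.1 and 18.9 CPM and aged ones 16.0, 17.3, 17.3 and 16.9 CPM, a log2 ratio of -0.09. Trim25 had 6 regions along the gene, with log2 ratios from -0.33 to 0.12, and none passed.

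Of the oligoadenylate synthetase (OAS) family, which makes the messenger that activates RNase L, only the OAS-like genes Oasl1 and Oasl2 had regions. The promoter of Oasl2 on chromosome 5 from 114897181 to 114897832 was weak, at 4.63, 4.04 and 4.28 CPM in young and 1.84, 2.16, 3.74 and 3.31 CPM in aged liver. Every aged sample was below every young one, but the log2 ratio of -0.68 had a standard error of 0.30 and an adjusted p of 0.177. It was -0.40 with offsets on mean abundance and -0.49 without aged replicate 1, and it passed under none of the alternatives run. Oasl1 lay at 0.00 (adjusted p = 1.000). Its other 3 regions, 1 of them at the start of a neighbouring gene, had log2 ratios from -0.25 to 0.00.

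The IFIT proteins bind viral RNA that lacks the cap modification of host messages. Ifit1, whose promoter carries a pair of ISRE cores as printed above, held 8.61, 5.22 and 6.25 CPM in young and 3.16, 3.92, 5.84 and 4.71 CPM in aged liver. In 3 of the 4 aged samples the level was below every young one, and the log2 ratio was -0.63 (standard error 0.28, adjusted p = 0.180). This region also covers the start of Ifit1bl2. The promoters of Ifit2 and Ifit3 had log2 ratios of -0.12 and -0.05 (adjusted p = 0.74 and 0.92). Both Ifit3 regions are repeated almost letter for letter at another locus, so their counts are uncertain.

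Among the other antiviral effectors, none of the 9 promoter regions passed the test, and 4 of the log2 ratios were above 0. The regions above 0 were those of Ifi27 (0.20), Eif2ak2 (0.18), which encodes the RNA-activated kinase PKR, Bst2 (0.12), the tether of budding virions, and Mx2 (0.11), a dynamin-like GTPase. Rsad2, which encodes viperin, lay at -0.19, its neighbour Cmpk2, a nucleotide kinase, at -0.08, Ifi35 at -0.18 and Mx1 at -0.28. Xaf1, a pro-apoptotic gene, held 14.0, 12.7 and 12.3 CPM in young and 4.74, 8.43, 12.8 and 10.2 CPM in aged liver, a log2 ratio of -0.57 (adjusted p = 0.199). The spread among the aged samples was wide there, and aged replicate 3 lay within the young range. In an exon of Xaf1 at 72308855 the log2 ratio was -0.84 (adjusted p = 0.155), and aged replicate 4 lay within the young range.

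ISG15 is a ubiquitin-like modifier, and Usp18 encodes the protease that reverses it. Isg15 had no promoter region of its own, and the 2 regions within 5 kb lay at the starts of Agrn and AW011738, with log2 ratios of 0.20 and -0.40 (adjusted p = 0.34 and 0.151). Usp18 had 7 regions, the most of any member. Its main promoter, at 32.9, 33.3 and 36.2 CPM in young and 32.9, 35.5, 37.6 and 35.5 CPM in aged liver, had a log2 ratio of 0.05 (adjusted p = 0.82).

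The region of Usp18 that passed lies on chromosome 6 from 121260572 to 121261530, with its centre 15145 bp into the gene, where a shorter transcript is annotated to start. Young samples held 6.48, 5.74 and 6.74 CPM and aged samples 3.60, 2.35, 3.74 and 2.80 CPM. Every aged sample was below every young one, and accessibility fell by 1.00 on the log2 scale (standard error 0.25, adjusted p = 0.037). The call was lost without any 1 of young replicates 1, 2 or 3 or aged replicates 1, 2 or 3 (adjusted p from 0.062 to 0.124) and kept without aged replicate 4 (0.046). The log2 ratio ran from -1.10 to -0.90 over these 7 fits. The call was also lost when aged replicates 1 and 2, 1 and 3, or 2 and 3 were summed as if from 1 animal (adjusted p = 0.053, 0.066 and 0.052), and kept for the other 3 pairs. With offsets on mean abundance the value was -0.75 (adjusted p = 0.156). Of the other regions of Usp18, an intronic one at 121250538 had every aged sample below every young one (-0.41, adjusted p = 0.195). An exonic one at 121270116 had every aged sample above (0.23, adjusted p = 0.51). These 2 were named after their values were seen.

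Parp9, Dtx3l and Parp14 encode ADP-ribosyltransferases and a ubiquitin ligase that works with PARP9. The bidirectional promoter of Parp9 and Dtx3l held 39.0, 34.5 and 57.7 CPM in young and 41.5, 47.9, 42.3 and 41.9 CPM in aged liver, a log2 ratio of 0.00 (adjusted p = 0.99). The neighbouring promoter of Parp14, on chromosome 16 from 35870734 to 35872081, held 23.3, 17.8 and 27.3 CPM in young and 12.7, 15.9, 16.3 and 17.9 CPM in aged liver. Aged replicate 4 lay just above the lowest young sample, and the log2 ratio was -0.53 (standard error 0.18, adjusted p = 0.092).

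Among the interferon-inducible GTPases, which act on the vacuoles of intracellular microbes, Gbp3 was the gene whose promoter passed the test, and it lies in a cluster of such genes on chromosome 3. Its promoter, from 142559725 to 142561110, held 13.7, 12.5 and 12.5 CPM in young and 7.29, 7.26, 8.64 and 8.40 CPM in aged liver. The group means were 12.9 ± 0.691 CPM (SD, n = 3) and 7.90 ± 0.725 CPM (SD, n = 4), without overlap. Accessibility fell by 0.71 on the log2 scale (standard error 0.18, adjusted p = 0.036). The call was lost without any 1 of young replicates 1, 2 or 3 or aged replicates 1, 2 or 3 (adjusted p from 0.057 to 0.137), was kept without aged replicate 4 (0.032), and was lost with offsets on mean abundance (-0.63, adjusted p = 0.102). With single samples removed the log2 ratio ran from -0.75 to -0.66, while the number of all regions called lower, 1838 by the main test, fell to 133 and 250 with young replicates 1 and 2 removed and to 273 and 475 with aged replicates 1 and 3 removed. It was still 1444 with aged replicate 2 removed and 1595 with young replicate 3 removed, where the Gbp3 call was also lost. The call was lost too when aged replicates 1 and 2, 1 and 3, or 2 and 3 were summed (adjusted p = 0.058, 0.069 and 0.054), and it was kept for the other 3 pairs.

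Gbp7 and Gbp2, on either side of Gbp3, had log2 ratios of 0.10 and 0.00 (adjusted p = 0.74 and 0.99), although each also has an ISRE core. Gbp7 held 13.2, 15.0 and 13.5 CPM in young and 13.3, 17.1, 15.2 and 14.9 CPM in aged liver, and Gbp2 held 10.2, 9.37 and 10.03 CPM in young and 8.61, 10.2, 11.7 and 9.42 CPM in aged liver. In both the ages overlapped. The difference between Gbp3 and these neighbours was not itself tested. The promoters of the immunity-related GTPases Igtp and Irgm1 lay at -0.03 and -0.10 (adjusted p = 0.94 and 0.69), and that of Igtp also covers a start of Irgm2. Upstream of Igtp, at 58198062 on chromosome 11, a region held 5.83, 6.54 and 5.75 CPM in young and 3.95, 2.75, 3.74 and 2.80 CPM in aged liver, without overlap. Its log2 ratio was -0.87 (standard error 0.25, adjusted p = 0.055), and of the 19 alternatives run it passed only with total counts (adjusted p = 0.0345). A region at 58210484, downstream of Igtp in an intron of the overlapping gene Irgm2, also did not overlap between the ages, with a log2 ratio of -0.75 (adjusted p = 0.166). Both were named after their values were seen.

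**Figure D2:**
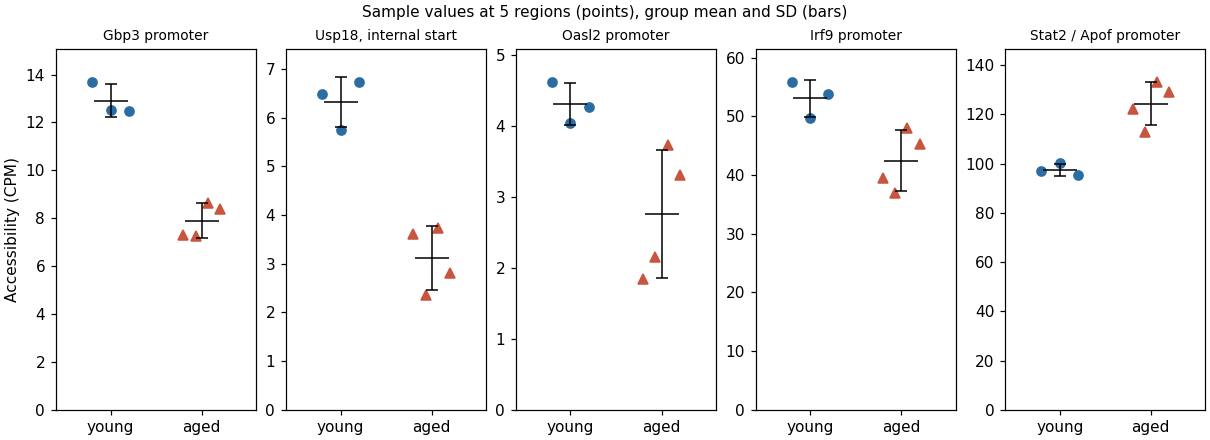
CPM of each sample (points) at the 5 regions named by rule, with the group mean and SD as bars and a separate vertical axis from 0 in each panel. Aged samples lie below young ones at Gbp3, Usp18, Oasl2 and Irf9 and above them at the region shared by Stat2 and Apof.

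Across the promoters, the interferon response genes had a lower median than promoters in general. The median log2 ratio was -0.05 over the 31 promoter regions and 0.09 over all 15422 promoter regions, and 12 of the 31 (38.7%) were above 0, against 61.1% of all. Over the 69 member regions the median was -0.10, against -0.04 for all regions, and 24 (34.8%) were above 0, against 46.6%. Scaling by total counts moved the median of all regions to -0.15 and that of the member regions to -0.22. The median of member regions minus that of all regions, -0.06 by the main test, was -0.03 with GC offsets and -0.13 with offsets on mean abundance, and it was -0.02 with young replicate 1 removed, -0.04 with aged replicate 1 removed and -0.12 with young replicate 2 removed. For promoters it was -0.14 and ran from -0.20 to -0.10 when single samples were left out.

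**Figure D3:**
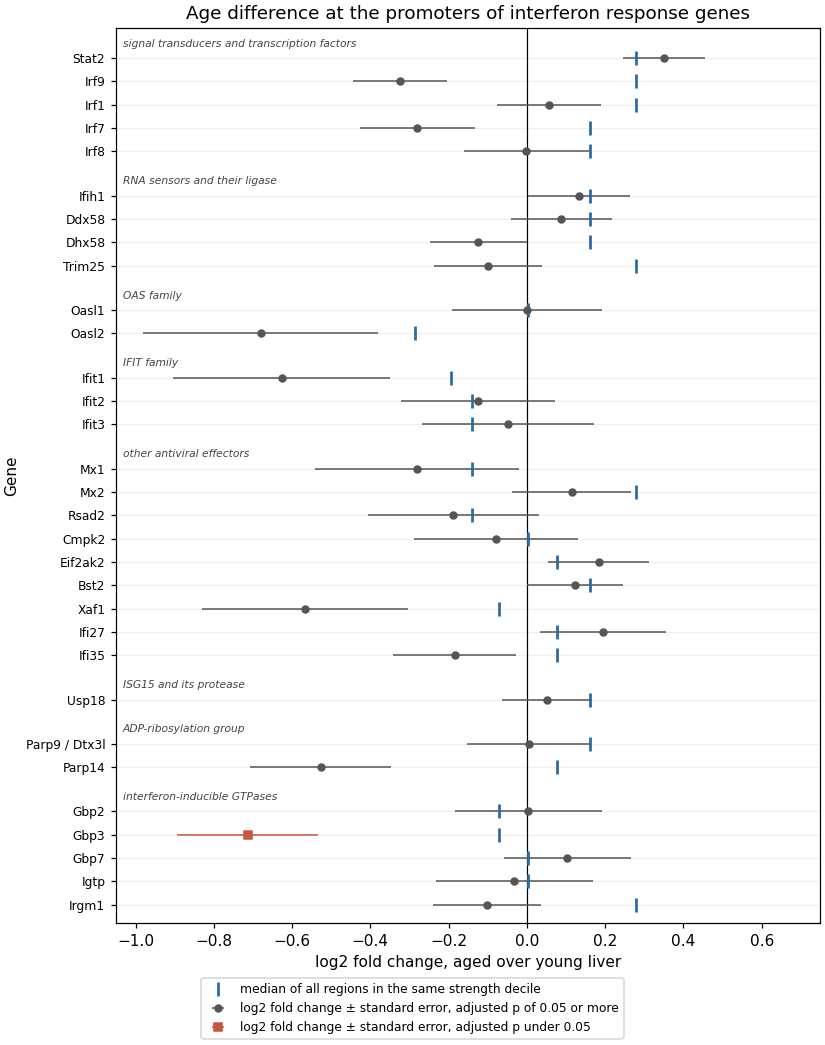
log2 ratio, aged over young (horizontal axis), with its standard error, for the 31 promoter regions by role; the vertical tick marks the median of all regions in the same strength decile. Only Gbp3, the square, had an adjusted p under 0.05, and most points lie left of their tick.

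The fold change of any region in these libraries depended on its strength, so member regions were also set beside regions of like strength. The median log2 ratio of all regions ran from -0.42 in the weakest decile to 0.28 in the strongest. Of the 69 member regions, 51 lay below the median of their own decile, as did 24 of the 31 promoter regions, with a median difference of -0.14 in both. Of all promoter regions 56.6% lay below the median of their decile, with a median difference of -0.03, and of the 32 promoter regions of other induced genes described at the end 24 (75%) did. All 11 member regions in the ninth decile did so, with values from -0.28 to 0.13 beside a decile median of 0.16. In the strongest decile, 7 of 8 did, the exception being the region of Stat2 and Apof. The shares were more even at 3 of 6 in the fourth decile, 5 of 8 in the fifth, 3 of 5 in the sixth and 5 of 9 in the eighth. In the seventh 10 of 14 lay below, in the second 4 of 4 and in the third 3 of 4, and the weakest decile held no member. The member regions were not uniformly shifted across libraries. Their mean log2 CPM minus that of all regions of their decile was 0.14, -0.03 and 0.10 in young replicates 1 to 3 and -0.20, -0.12, 0.05 and -0.07 in aged replicates 1 to 4. The ages overlapped in this measure, since aged replicate 3 lay above young replicate 2. Among the cell type markers given earlier, the median difference from the decile median was 0.00 for the hepatocyte list. It was -0.28 for the stellate cell list and -0.17 for the sinusoidal endothelial list.

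**Figure D4:**
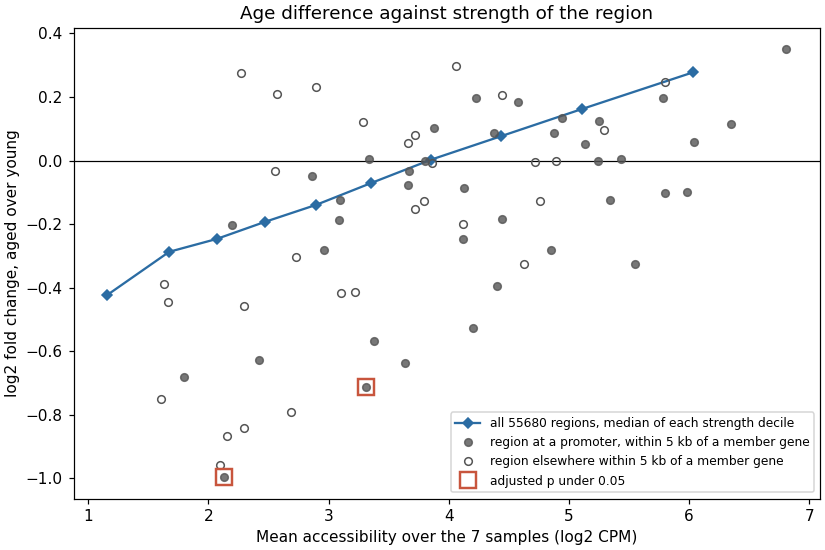
log2 ratio, aged over young (vertical axis), against mean log2 CPM over the 7 samples (horizontal axis) for the 69 member regions, filled at promoters and open elsewhere; diamonds joined by a line are the decile medians of all 55680 regions. Most member regions lie below the line, and the 2 with an adjusted p under 0.05, in squares, lie well below it.

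Away from promoters, 30 member regions had a median log2 ratio of -0.13, beside -0.09 for the 40258 such regions of the series, and none passed the test in either direction with edgeR or DESeq2. Of those 40258, edgeR called 1.66% higher and 3.78% lower. At an unadjusted p under 0.05, 0 of the 30 were higher and 6 lower (20%), where 7.61% and 14.1% of such regions were. Every aged sample was below every young one in 5 of the 30 (16.7%, against 12.7%) and above in 1 (3.33%, against 6.26%). By location, the medians were 0.00 in 10 exonic, -0.15 in 11 intronic, -0.42 in 5 downstream and -0.18 in 4 distal intergenic regions. Over all regions they were -0.13, -0.09, -0.20 and -0.05 in the same order, so the exonic members had a higher median than exonic regions in general and the others a lower one.

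An ISRE core within 250 bp of the centre was found in 23 of the 69 member regions (33.3%) and in 6.16% of all regions. The member regions with a core in that window had a median log2 ratio of -0.09 and those without one there -0.11. Some of the second group, such as the promoter regions of Igtp, Stat2 and Rsad2, hold a core farther from the centre. To ask whether ISRE regions in general differed with age, the gene list was set aside. The 3431 regions with a core in that window were compared with the other regions of the same decile in each library. For young liver the difference in mean log2 CPM was -0.038 ± 0.039 (SD, n = 3), and for aged liver it was 0.021 ± 0.016 (SD, n = 4). The values were -0.053, -0.067 and 0.007 in young and -0.002, 0.035, 0.028 and 0.022 in aged samples, so that the ages overlapped. A two-sided exact permutation test of the change of 0.058 gave p = 0.114, but 0.0571 is the smallest that 3 samples against 4 allow, so the test could not have passed 0.05.

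The rest of the pathway was described from lists of other genes, whose counts can be read against the 4.48% of all promoter regions called more accessible and the 2.06% called less. Of 14 receptor, kinase and brake genes, 13 had a promoter region, with a median log2 ratio of 0.19, and 1 was called more accessible and none less. It was Ifngr1, a chain of the interferon gamma receptor, with a mean of 71.6 CPM in young and 106.8 CPM in aged liver (log2 ratio 0.58, standard error 0.11, adjusted p = 0.014). Ifnar1 and Ifnar2, which form the type I receptor, had values of 0.32 and 0.34 (adjusted p = 0.163 and 0.111). In 4 of the 13 (30.8%, against 20.4% of all promoter regions) every aged sample lay above every young one, and in 0 below. Of the 13, 8 lay below the median of their strength decile, with a median difference of -0.09. Of 14 genes of sensing and induction, 12 had a promoter region, with a median of 0.06. Here 1 (8.33%) was called more accessible and none less. The called one was Mavs, the mitochondrial adaptor of the RNA sensors (0.41, standard error 0.11, adjusted p = 0.046). In 4 of the 12 (33.3%, against 20.4% of all promoter regions), those of Mavs, Ticam1, Irf2 and Irf3, every aged sample lay above every young one. In 1 (8.33%, against 8.88%), that of the DNA sensor Cgas (-0.73, adjusted p = 0.090), every aged sample lay below. Of 35 further induced genes, 33 had a promoter region. Their 32 distinct regions had a median of 0.00, and the only call in either direction was Tor3a, higher in aged liver (0.50, adjusted p = 0.036). All 3 called genes had mean levels above 60 CPM, which is in the strongest decile, where the median log2 ratio of all regions was 0.28.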

How the data were processed

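The deposited values are raw counts of reads in 55680 regions, with 7 libraries as columns and no scaling applied by the authors. Per the labels, processing used cutadapt 1.13, Bowtie2 2.4.1, MACS2 2.2.7 and featureCounts on GRCm38. The authors counted filtered, deduplicated reads in regions with a peak in more than 1 library. All 7 columns were assigned by the sample descriptions, and 0 were left over.

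Regions were annotated with GENCODE M21. Aged and young libraries were compared by the quasi-likelihood test of edgeR 4.0.16 (R 4.3.3), with TMM normalization, no filter and a model of age alone (Benjamini-Hochberg adjustment over all regions, threshold 0.05). Log2 CPM used a prior count of 2. The standard error was the size of the coefficient divided by the root of the F statistic. Near-identical copies were places covering at least 80% of a region at 95% identity (minimap2 2.31). Same-age libraries differed by 2.4 to 6.07 chi-square per degree of freedom, so none was a duplicate. Alternatives were DESeq2 1.42.0, other scalings, loess offsets (span 0.3), filterByExpr, single samples left out, aged pairs summed, a replicate block, and other thresholds, windows and motifs.

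The members and lists were chosen with earlier results of these data known, so lists are described without a test. By rule, full statistics were given for regions with an adjusted p under 0.05 and for up to 12 promoter regions without overlap between the ages, and the other members by role. Values per sample of further regions were added after they were seen.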

Additional observations from a re-analysis of the deposited data

Results flagged for a closer look

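Among 38 member regions examined, 2 had an aged sample that lay far from the other 3, where the gap to the nearest sample exceeded Dixon's 95% critical value for 4 samples, as a share of their range. By chance about 1 in 20 of the regions examined would be flagged, so 2 of 38 is near that share. At the promoter of Irf8, aged replicate 4 had a log2 CPM of 5.69, while the other aged samples had 5.04 to 5.10 and the young samples 5.11 to 5.39. At the shared promoter of Parp9 and Dtx3l, aged replicate 2 had a log2 CPM of 5.59, while the other aged samples had 5.38 to 5.41, and the young samples spread from 5.12 to 5.86.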

How the results depend on the processing

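The number of member regions called less accessible, 2 by the main test, was 6 with total counts, 1 with offsets on mean abundance and 0 at a threshold of 0.01. The calls over all regions moved too, from 1838 lower to 2931, 578 and 123. Member regions called less accessible numbered 0 with aged replicates 1 and 2, 1 and 3, or 2 and 3 summed. Over all regions these pairs gave 1321, 693 and 1107 (2.37%, 1.24% and 1.99%). When single samples were left out, 0 to 4 member regions were less accessible, where all regions gave 133 to 2600. The number called more accessible, 0 by the main test, was 1 with DESeq2, with GC offsets and with aged replicates 2 and 4 summed. Over all regions these settings gave 2760, 3564 and 2164 (4.96%, 6.4% and 3.89%). When single samples were left out it was 0 to 1, where all regions gave 55 to 1630. The median log2 fold change, -0.10 over member regions and -0.05 over promoters, was -0.22 and -0.17 with total counts. It stayed below 0 under every alternative run, at -0.22 to -0.02 and -0.17 to -0.01. The downstream region of Irf1 passed with total counts (-0.91, adjusted p = 0.042). The ISRE comparison kept its direction under every alternative run (0.024 to 0.082), and its lowest p was 0.0571, the smallest the design allows, with GC offsets. With a replicate block over replicates 1 to 3 of each age, 4 member regions and 2531 of all regions were less accessible. Samples of the same number did not deviate together (correlations of -0.119, 0.056 and 0.03), so the numbers were not taken to pair them. The causes of these differences were not tested.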
